A study of Mus musculus with 28 samples.

Results

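Small RNA of mouse sperm was compared between mice lacking Nrf2 in the liver and their floxed controls, in 8 of the 28 sperm libraries of the study. The 4 Nrf2 LKO (liver knockout) libraries came from mice with a floxed Nrf2 gene and Albumin-Cre, a Cre recombinase driven by the albumin promoter and so active in hepatocytes. The 4 Nrf2 flox libraries came from mice with the floxed gene, labelled as the Nrf2 control, for which no Cre is named. The libraries were chosen by these labels and by the columns of the liver knockout count table, with every feature class kept. No alcohol exposure is named for either group, and ages, strain background and the part of the epididymis sampled are not given in the sources used here. The other libraries came from wild type and whole-body Nrf2-/- mice with and without alcohol. Libraries were made from Trizol-extracted total RNA with Qiaseq reagents for small RNA. The labels number the samples 1 to 4 in each group without saying that they came from separate animals, so the p-values measure the spread between these samples.

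Nrf2, encoded by Nfe2l2, is a transcription factor that is held by Keap1 and degraded until oxidants or electrophiles release it, after which it binds antioxidant response elements and switches on detoxification and glutathione genes. Mature sperm are largely silent in transcription, and their small RNAs are tRNA fragments, miRNAs and piRNAs together with fragments of messages left from spermatogenesis. During passage through the epididymis sperm receive proteins and RNA from its epithelium, which secretes Cd52, clusterin and Crisp1 onto the sperm surface.

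The comparison asks whether loss of Nrf2 in the liver, a tissue outside the germ line, goes with a different RNA content of sperm. Of 39251 feature names other than miRNAs, 9836 had enough counts to be tested and 5 of these (0.0508%), 4 lower (0.0407%) and 1 higher (0.0102%), passed a Benjamini-Hochberg adjusted p of 0.05 in edgeR's quasi-likelihood test. The snoRNA gene Snord90, exons of Cd52, introns of Slc28a3 and the Y RNA HY1 fell in Nrf2 LKO libraries, and the repeat UCON31 in antisense rose. Of 819 miRNA names 295 were tested and 0 passed in edgeR or DESeq2, while 40 (13.6%) were under an unadjusted p of 0.05, 18 of them higher (6.10%) and 22 lower (7.46%). Among the other features 1223 (12.4%) were under that p, 492 higher (5.00%) and 731 lower (7.43%), and the groups did not overlap for 661 (6.72%), with 381 (3.87%) lower and 280 (2.85%) higher in every LKO library. The lower ones were mostly gene exons: 319 of 5319 tested exon sets (6.00%) were lower in every LKO library than in any flox library, and 106 (1.99%) were higher.

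The sequences of the miRNAs with the lowest p, together with others that carry the miR-200 and miR-148 seeds, show which of these are related. The mature miRNAs below are RefSeq's (GRCm38.p6), 5′ to 3′, with the seed, bases 2 to 8, in capitals. RefSeq's table matched 241 of the 295 tested miRNAs by name. The first lines are the miRNAs with seeds of their own among those named here, the next are miR-200a and miR-141 with a shared seed, then the miR-200b, miR-200c and miR-429 seed, and last the miR-148 and miR-152 seed.
miR-532-3p: cCUCCCACacccaaggcuugca
miR-210-3p: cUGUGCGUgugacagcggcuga
miR-202-3p: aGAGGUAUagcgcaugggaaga
miR-224-5p: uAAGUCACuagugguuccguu
miR-101a-3p: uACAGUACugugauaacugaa
miR-190a-5p: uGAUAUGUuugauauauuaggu
miR-200a-3p: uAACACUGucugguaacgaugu
miR-141-3p: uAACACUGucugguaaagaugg
miR-200b-3p: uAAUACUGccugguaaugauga
miR-200c-3p: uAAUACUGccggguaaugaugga
miR-429-3p: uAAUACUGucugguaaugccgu
miR-148a-3p: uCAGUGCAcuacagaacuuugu
miR-152-3p: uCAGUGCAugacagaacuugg
miR-148b-3p: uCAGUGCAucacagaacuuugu
In that build the miR-200 genes lie in 2 places. On the minus strand of chromosome 4, miR-200b-3p lies at chr4:156055685-156055706, miR-200a-3p at chr4:156054911-156054932 and miR-429-3p at chr4:156053916-156053937. On the minus strand of chromosome 6, miR-200c-3p lies at chr6:124718324-124718346 and miR-141-3p at chr6:124717917-124717938. miR-148a-3p lies at chr6:51269829-51269850 (minus strand), miR-152-3p at chr11:96850439-96850459 (plus strand) and miR-148b-3p at chr15:103285185-103285206 (plus strand).

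Total counts ran from 3257877 to 4324032 in the LKO libraries and from 2567463 to 4394714 in the flox libraries, and at these depths a 95% Wilson interval on a class share is at most 0.0568 percentage points to either side, which covers counting error only. Reads can be counted on several copies of a repeated gene: 10 of the 23 rows named tRNA-Gly-GGY lay within 5% of the highest one, as did 9 of the 28 rows of tRNA-Glu-GAG_. Likewise 95 of the 188 tested piRNA clusters had a total within 5% of another part of the same cluster. The treatment of reads with several positions is not stated in those sources, and class totals and levels of these RNAs may hold the same reads more than once. Transcripts of the sperm and round spermatid list were present in all 8 libraries, at 756 to 879 summed exon counts per 1000000 counts of all classes (summed CPM) in LKO and 628 to 826 in flox. Nfe2l2 had 0, 6, 22 and 4 exon counts in LKO 1 to 4, against 11, 9, 20 and 17 in flox 1 to 4. Its intron counts leaned the other way, with 11, 16, 15 and 6 in LKO, against 8, 12, 4 and 4 in flox. Since the deletion is directed to hepatocytes, these counts do not check it. Flox 3 stood apart in genes of the epididymis epithelium: Lcn5, an epididymal lipocalin, had 300 counts there, Spint4 had 99 and Rnase9 had 56, while the other 7 libraries had 0 to 2 counts of Lcn5 and 0 of Spint4 and Rnase9. Fewer cells of a type and less RNA per cell cannot be told apart in such bulk samples.

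Among the RNA classes, structural RNA, which is mostly tRNA, took the largest share of counts in both groups and exons differed most clearly. Exons held 6.95%, 8.51%, 9.57% and 7.38% of the counts in LKO 1 to 4, against 10.8%, 9.84%, 10.2% and 10.1% in flox 1 to 4. Every LKO library lay below every flox library, with means of 8.10% ± 1.18 in LKO and 10.2% ± 0.409 in flox (SD, n = 4 each). The exact two-sided permutation p was 0.0286, the smallest that 4 against 4 libraries allow, and 0.229 after adjustment over the 8 classes, the smallest that 1 differing class can reach. The separation depended on the denominator. With structural RNA left out of it, the exon shares of LKO 2 and LKO 3 exceeded those of flox 2 and flox 4.

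Structural RNA held 39.3% ± 5.55 of the counts in LKO and 32.7% ± 4.27 in flox (SD, n = 4 each; exact p = 0.114, adjusted p = 0.305). Its shares overlapped, since LKO 4 had 32.3% and flox 3 had 38.9%. The piRNA clusters held 22.6% ± 2.67 in LKO and 23.9% ± 3.26 in flox, and miRNAs held 16.3% ± 3.58 in LKO and 17.99% ± 3.58 in flox (SD, n = 4 each). Differences between these means were smaller than the SD of either group. Within the classes, exons made up 54.8% ± 1.20 of exon plus intron counts in LKO and 57.7% ± 1.40 in flox (exact p = 0.0571, adjusted over 4 values p = 0.114). tRNA made up 97.1% ± 0.604 of structural RNA in LKO and 95.7% ± 1.02 in flox, and antisense reads made up 54.9% ± 1.12 of transposable element counts in LKO and 53.2% ± 1.62 in flox. None of the 8 class shares and 4 compositions passed an adjusted p of 0.05, and with 4 libraries a group a lone difference among them could not.

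**Figure D1:**
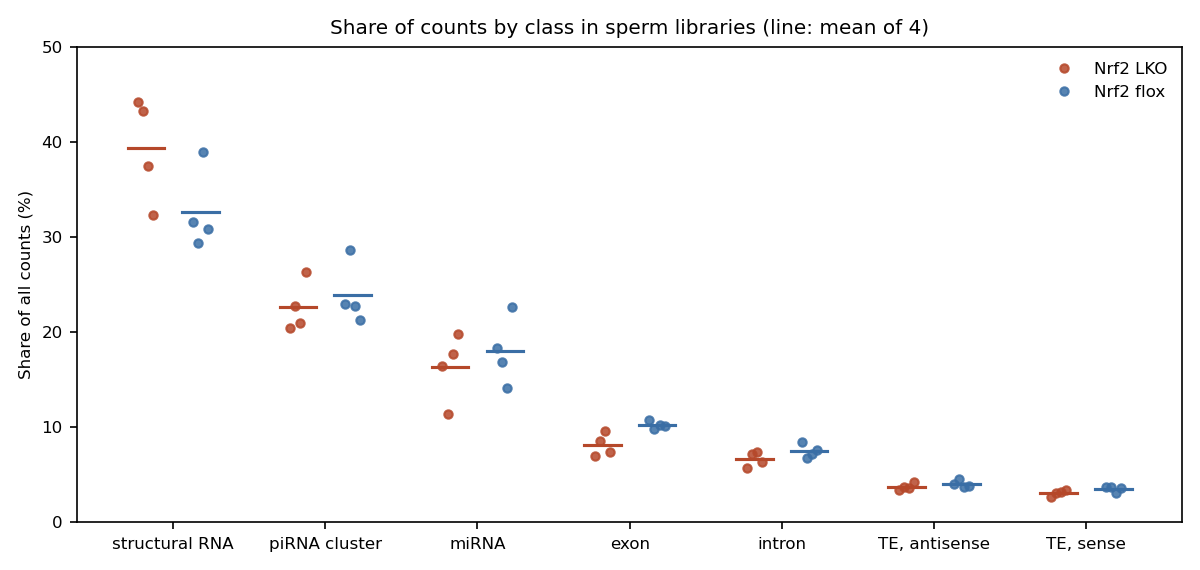
Share of all counts (%, vertical axis) for 7 RNA classes in each Nrf2 LKO and Nrf2 flox sperm library; points are libraries and lines are means of 4. The exon shares of the 4 LKO libraries, 6.95% to 9.57%, all lie below those of the 4 flox libraries, 9.84% to 10.8%, while the other classes overlap.

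The miRNAs with the lowest unadjusted p were mostly lower in LKO. CPM here are counts per 1000000 miRNA counts after TMM scaling (trimmed mean of M-values), and differences are log2, LKO minus flox, with their SE. miR-151-5p, which lies in an intron of the focal adhesion kinase gene, had 258, 214.2, 472 and 347 CPM in LKO 1 to 4, against 1139, 544, 617 and 699 CPM in flox 1 to 4. It was lower in all 4 LKO libraries, by -1.21 ± 0.34 (log2, SE; edgeR unadjusted p = 0.00395, adjusted p = 0.336). miR-210-3p, the miRNA most widely induced by hypoxia, had 91.9, 41.5, 181 and 82.5 CPM in LKO, against 366, 155, 332 and 208 CPM in flox, where LKO 3 overlapped with flox 2. Its difference was -1.39 ± 0.43 (log2, SE; edgeR adjusted p = 0.336).

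The miR-200 family keeps epithelial cells epithelial by repressing Zeb1 and Zeb2, and miR-205 accompanies it in epithelia. miR-141-3p had 1026, 266, 2052 and 1057 CPM in LKO, against 2907, 2253, 3139 and 2962 CPM in flox, so the groups did not overlap. miR-200a-3p, with the same seed, had 2917, 1313, 4093 and 2469 CPM in LKO, against 6463, 4074, 5681 and 6587 CPM in flox, where only LKO 3 reached the lowest flox library. The log2 differences were -1.35 ± 0.46 for miR-141-3p and -1.08 ± 0.34 for miR-200a-3p (SE; edgeR adjusted p = 0.336 each). The seed of miR-200b, miR-200c and miR-429 moved less: miR-200b-3p differed by -0.96 ± 0.34, miR-429-3p by -0.49 ± 0.30 and miR-200c-3p by -0.42 ± 0.35 (log2, SE). miR-205-5p differed by -0.13 ± 0.37, which became 0.12 without LKO 4 and 0.08 without flox 1. All 6 members of this list were below 0, with a median of -0.73, against 0.03 over all 295 miRNAs, and 0 were called.

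The miR-148 and miR-152 seed was carried by 3 tested miRNAs. miR-148a-3p, abundant in liver and in secretory epithelia, had 509, 287, 2135 and 1498 CPM in LKO, against 2508, 1895, 5671 and 4616 CPM in flox. Its difference was the most negative of all tested miRNAs, -1.73 ± 0.57 (log2, SE; edgeR adjusted p = 0.336), although LKO 3 lay above flox 2. miR-152-3p differed by -1.03 ± 0.35 and miR-148b-3p by -0.07 ± 0.29 (log2, SE), the second turning to 0.02 without LKO 2 and 0.09 without flox 4. miR-101a-3p, which represses the histone methyltransferase Ezh2, had 276, 142, 642 and 460 CPM in LKO, against 1333, 548, 871 and 1032 CPM in flox, a difference of -1.31 ± 0.44 (log2, SE). miR-190a-5p, from an intron of Talin 2, had 7.45, 17.3, 25.6 and 27.5 CPM in LKO, against 39.0, 63.8, 44.0 and 60.3 CPM in flox, a difference of -1.35 ± 0.46 (log2, SE). Its groups did not overlap, but LKO 1 rested on 3 counts and LKO 2 on 5. miR-190b-5p, which has the same seed and is not printed above, differed by -0.22 ± 0.31 (log2, SE).

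Lists with members below 0 included other families. All 3 members of the miR-29 family, which represses collagen genes, were below 0, with a median of -0.94, and 1 (33.3%) was lower in every LKO library, against 3.39% of all miRNAs. Of 5 members of the miR-30 family 4 were below 0, with a median of -0.57, and 2 (40.0%) were lower in every LKO library. miRNAs known to target Nrf2 or Keap1 transcripts, among them miR-141-3p and miR-200a-3p, were below 0 for 11 of 13, with a median of -0.47. A list of sperm miRNAs known to respond to paternal stress, which holds members of the miR-29 and miR-30 families, had a median of -0.37 over 13, with 8 below 0. The 4 tested members of the miR-191 and miR-425 cluster were all above 0, with a median of 0.43. Scaling by the total of all classes placed this median at -0.01, against -0.30 over all miRNAs. None of these lists held a called miRNA.

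Of the 10 miRNAs with the lowest p, 3 were higher in LKO. miR-532-3p had 91.9, 183, 67.8 and 74.4 CPM in LKO, against 35.3, 58.0, 33.3 and 34.6 CPM in flox. miR-202-3p, enriched in testis and ovary, had 44.7, 62.2, 37.7 and 43.8 CPM in LKO, against 16.7, 14.5, 25.8 and 14.5 CPM in flox. Neither overlapped between the groups, and the differences were 1.34 ± 0.41 and 1.38 ± 0.43 (log2, SE; edgeR adjusted p = 0.336 each). miR-224-5p had 89.4, 72.5, 27.1 and 45.9 CPM in LKO, against 22.3, 18.8, 28.8 and 17.9 CPM in flox, a difference of 1.39 ± 0.46 (log2, SE), with LKO 3 below flox 3. Over all tested miRNAs the groups did not overlap for 14 (4.75%), with 10 (3.39%) lower and 4 (1.36%) higher in every LKO library.

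**Figure D2:**
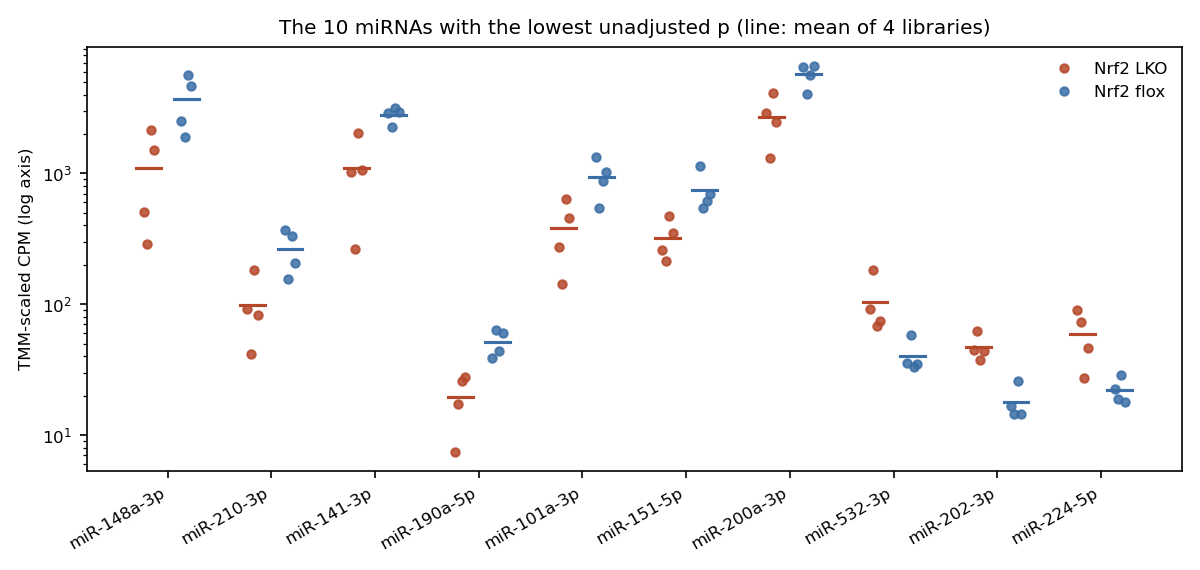
TMM-scaled CPM (log axis) of the 10 miRNAs with the lowest unadjusted p, in order of their log2 difference, for each Nrf2 LKO and Nrf2 flox library; lines are means of 4. LKO 3 is the highest or second highest LKO point for 7 of 7 miRNAs that are lower in LKO, and none of the 10 passed the adjusted threshold.

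Among the 10 most abundant miRNAs let-7a-5p differed most, and none was called. miR-16-5p, a cell cycle repressor, made up 27.1% ± 5.00 of miRNA counts in LKO and 24.5% ± 2.58 in flox, and miR-191-5p made up 15.1% ± 3.55 in LKO and 14.0% ± 0.673 in flox (SD, n = 4 each). Their differences were 0.37 ± 0.20 and 0.40 ± 0.26 (log2, SE). let-7a-5p, of a family that keeps cells differentiated by holding down growth genes, made up 5.35% ± 1.05 in LKO and 3.78% ± 0.597 in flox (SD, n = 4 each). Its CPM were 81631 and 81552 in LKO 1 and 2 but 38870 and 41215 in LKO 3 and 4, against 25941, 44764, 37704 and 33069 in flox 1 to 4, so LKO 1 and 2 alone stood above flox (0.78 ± 0.29, log2, SE; edgeR adjusted p = 0.353). All 9 let-7 members were above 0, with a median of 0.40, against 0.03 over all miRNAs, and scaling by the total of all classes placed these medians at 0.09 and -0.30. The other miRNAs among the 10 most abundant, miR-30d-5p, miR-125b-5p, miR-93-5p, miR-25-3p, let-7f-5p, miR-143-3p and let-7c-5p, had differences between -0.12 and 0.34 (log2). The 10 together made up 65.7% ± 2.47 of miRNA counts in LKO and 61.7% ± 2.58 in flox (SD, n = 4 each; exact p = 0.0857, adjusted p = 0.114).

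The change with the lowest p among all other features was in Snord90, a box C/D small nucleolar RNA gene of the kind that guides methylation of other RNAs. CPM of these features are counts per 1000000 counts of all classes but miRNA, after TMM scaling. Snord90 had 25.9, 32.1, 107 and 30.3 CPM in LKO 1 to 4, against 210, 115, 246 and 231 CPM in flox 1 to 4. The groups did not overlap, though LKO 3 came close to flox 2. It was 4.07-fold lower in LKO (-2.03 ± 0.35, log2, SE; edgeR adjusted p = 0.0303). Cd52, the glycoprotein that the epididymis passes to the sperm surface, had 36.1, 30.9, 77.1 and 26.9 CPM in LKO, against 110, 154, 129 and 114 CPM in flox. It fell by 1.56 on the log2 scale (SE 0.28; edgeR adjusted p = 0.0303), a 2.96-fold difference, with every LKO library below every flox library.

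Introns of Slc28a3, a concentrative nucleoside transporter, had 5.59, 11.7, 20.4 and 7.16 CPM in LKO, against 24.8, 33.4, 58.6 and 46.1 CPM in flox. The difference was -1.84 ± 0.34 (log2, SE; edgeR adjusted p = 0.0303) and the groups did not overlap. HY1, the Y1 RNA that binds the Ro60 protein and is often found in fragments outside cells, had 290.0, 220, 434 and 222 CPM in LKO, against 573, 957, 633 and 714 CPM in flox. It fell by 1.30 on the log2 scale (SE 0.24; edgeR adjusted p = 0.0303), a 2.47-fold difference. UCON31, a conserved repeat of unknown kind counted on 1 row, rose in antisense by 2.56 ± 0.50 (log2, SE; edgeR adjusted p = 0.0488). It rested on 25, 45, 19 and 14 counts in LKO, against 5, 4, 8 and 5 counts in flox, and is named here after its values were seen because its mean is under 10 CPM.

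These 5 calls depended on single libraries. Without LKO 3, the LKO library nearest to flox in all 4 that fell, 209 features were called, 184 of them lower and 25 higher, and all 5 were among them. Without LKO 1, LKO 2, flox 3 or flox 4 no feature was called, without flox 2 1 was called and without LKO 4 4 were, all higher. The log2 differences of Cd52 stayed between -2.01 and -1.40 over the 8 omissions. DESeq2 called 41 features, 32 lower and 9 higher, with all 5 among them. Of those described below, the 41 also held Ptges, Itm2b, Scd2, Rps18, Snora17, Snora5c, RLTR4_Mm, MLT2D, tRNA-Glu-GAG_, tRNA-Leu-CTG, tRNA-Thr-ACY and introns of Dagla and Pgs1. At an adjusted p of 0.1 edgeR called 25 (0.254%), 24 of them lower.

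**Figure D3:**
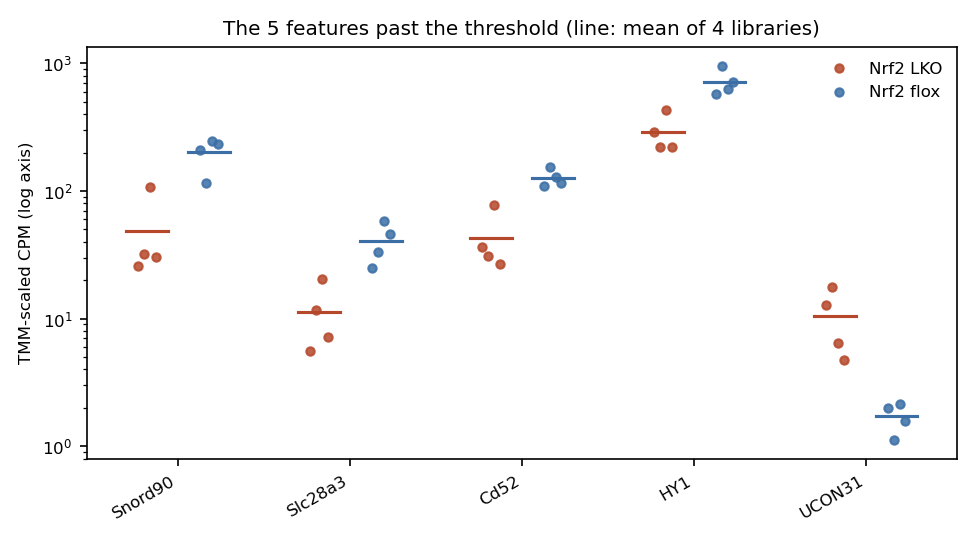
TMM-scaled CPM (log axis) of the 5 features past an adjusted p of 0.05 in each Nrf2 LKO and Nrf2 flox library; lines are means of 4 libraries. Snord90, Slc28a3 introns, Cd52 and HY1 are lower in all 4 LKO libraries, with LKO 3 the highest of them, and UCON31 is higher.

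The features between adjusted p of 0.05 and 0.1 were chosen after their values were seen. Among them were exons of Ptges, the inducible prostaglandin E synthase, with 35.5, 17.6, 62.5 and 16.7 CPM in LKO, against 71.2, 88.0, 116 and 91.9 CPM in flox (-1.47 ± 0.32, log2, SE; edgeR adjusted p = 0.0716). Itm2b, a membrane protein that also restrains amyloid precursor processing, had 61.4, 55.97, 107 and 35.8 CPM in LKO, against 132, 159, 192 and 115 CPM in flox (-1.20 ± 0.28). Scd2, a stearoyl-CoA desaturase, had 19.3, 20.7, 31.6 and 17.0 CPM in LKO, against 51.6, 46.8, 62.6 and 46.1 CPM in flox (-1.22 ± 0.26). All 3 were lower in every LKO library, and LKO 3 was again the highest of the LKO libraries. Introns of Dagla, a diacylglycerol lipase, differed by -1.48 ± 0.30 (log2, SE). The other names were exons of Rpn2, Tapbp, Ly6e, Dusp6, Gsk3b, Arf4, Hadh, Wtap, Crip1, Cd24a, Gm6548 and introns of Dusp5, besides Snora17, Snora5c, Rps18 and the repeat RLTR4_Mm.

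Transcripts of the epididymis epithelium were lower in LKO. Their summed CPM were 188, 271, 499 and 158 in LKO 1 to 4, against 645, 662, 824 and 621 in flox 1 to 4. Every LKO library lay below every flox library. Of 12 genes found, 4 had enough counts to be tested, all 4 were below 0 with a median of -1.22, and 1, Cd52, was called. Over all exon sets the median was -0.18, and over all features other than miRNAs it was 0.01. Crisp1, a secreted protein that coats sperm, had 249, 283, 452 and 169 CPM in LKO, against 484, 541, 552 and 524 CPM in flox (-0.86 ± 0.25, log2, SE; edgeR adjusted p = 0.162), again without overlap. Clu, the chaperone clusterin, differed by -1.22 ± 0.34 (edgeR adjusted p = 0.142), and 90.4 of its CPM in flox 3 stood far above the 33.1 to 40.8 CPM of the other flox libraries. Without flox 3 its difference was -0.78. Adam7 differed by -1.22 ± 0.41 (edgeR adjusted p = 0.221), with 21.5 CPM in LKO 4 and 8.90 CPM in flox 4, so its groups overlapped. The remaining 8 genes, among them Lcn5, Gpx5 and Rnase10, had 0 to 5 counts in most libraries and were not tested.

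Markers of other tissue cells differed in direction, and none was called. Smooth muscle and fibroblast transcripts had 103 to 172 summed CPM in LKO and 162 to 353 in flox, with all 7 tested members below 0 and a median of -0.53. Red blood cell transcripts had 4.89 to 17.97 summed CPM in LKO and 4.63 to 40.3 in flox, and both tested members were below 0, with a median of -0.58. Leukocyte transcripts had 10.1 to 24.2 summed CPM in LKO and 10.7 to 32.7 in flox, with Ptprc and Tyrobp near 0, and the 2 tested members had a median of -0.05. Of the miRNAs that mark these cells, 6 of 8 for leukocytes were above 0, with a median of 0.28, while those of smooth muscle and fibroblasts had a median of -0.12 over 11 and those of red blood cells -0.15 over 4. Flox 3 had the highest sums of epididymis, fibroblast and red blood cell transcripts. The part of these cells in the differences was not tested.

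Hepatocyte transcripts overlapped between the groups. The sum of miRNAs abundant in liver, as a part of all counts, was lower in every LKO library, which depended on the scaling. Alb, the hepatocyte gene whose promoter drives the Cre, had 16, 57, 146 and 212 exon counts in LKO, against 140, 55, 304 and 93 counts in flox, a difference of -0.25 ± 0.44 (log2, SE) that was above 0 without LKO 1 (0.09) or without flox 3 (0.20). The hepatocyte list summed to 5.19 to 68.7 CPM in LKO and 21.7 to 94.7 in flox, and its 2 tested members had a median of -0.42. The liver-specific miR-122-5p had 4390, 6861, 7331 and 4238 CPM in LKO, against 7056, 12020, 12851 and 2263 CPM in flox (-0.58 ± 0.44, log2, SE; edgeR adjusted p = 0.553). Flox 4 was the lowest and flox 3 the highest of all 8 libraries. The 5 miRNAs listed as abundant in liver, which are miR-122-5p, miR-148a-3p, miR-101a-3p, miR-192-5p and miR-194-5p, summed to 768, 711, 2152 and 1660 CPM of all counts in LKO, against 2548, 2598, 3077 and 2375 in flox. All 5 were below 0, with a median of -0.58, against 0.03 over all miRNAs, and 0 were called. Scaling by the total of all classes placed these medians at -0.76 and -0.30. On the TMM scale the sum of the 5 was higher in LKO 3 than in flox 4, so the groups overlapped.

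**Figure D4:**
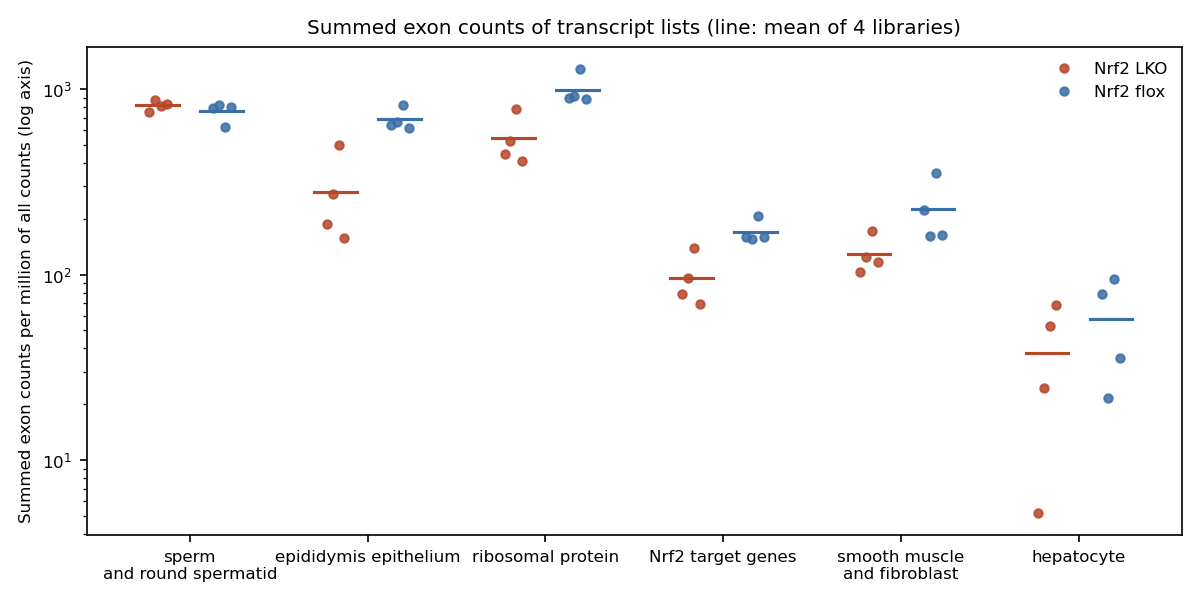
Summed exon CPM of all counts (log axis) for 6 transcript lists in each Nrf2 LKO and Nrf2 flox library; lines are means of 4. Sums of epididymis epithelium, ribosomal protein and Nrf2 target transcripts do not overlap between the groups (epididymis 158 to 499 in LKO and 621 to 824 in flox), while sperm and hepatocyte transcripts do.

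Messages of sperm and round spermatids went the other way, by a small margin. Those of spermatocytes did not, with 3 of 4 tested below 0 and a median of -0.05. Of 13 sperm and round spermatid transcripts 12 were above 0, with a median of 0.36, 2 (15.4%) were higher in every LKO library, against 1.99% of all exon sets, and 0 were called. Spem1, needed for removal of the sperm cytoplasm, had 42.7, 43.1, 36.0 and 46.0 CPM in LKO, against 19.6, 25.6, 22.9 and 33.1 CPM in flox (0.73 ± 0.25, log2, SE; edgeR adjusted p = 0.244). Gapdhs, the sperm glycolytic enzyme, had 41.6, 51.3, 35.7 and 50.1 CPM in LKO, against 26.0, 28.7, 27.0 and 33.1 CPM in flox (0.64 ± 0.24). Odf1 of the tail's outer dense fibres differed by 0.61 ± 0.23 and the protamine Prm2 by 0.50 ± 0.22 (log2, SE), with overlap. Scaled by the total of all classes the list's median was 0.08 and that of all features other than miRNAs was -0.28, so the level of these transcripts depended on the scaling while their place above the median of all features did not.

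Nrf2 target genes were of interest as the textbook outputs of the deleted factor. Their summed CPM were 79.1, 96.4, 140.0 and 69.8 in LKO, against 159, 156, 206 and 159 in flox. These are parts of all counts, a scale that placed the list's median at -0.96 and that of all exon sets at -0.46. On the TMM scale the sum of LKO 3 was level with that of flox 1. Of 31 genes found, 16 were tested and 0 were called. Of those tested 15 were below 0, with a median of -0.70 (exon sets -0.18). In every LKO library 2 (12.5%) were lower, against 6.00% of all exon sets. Ribosomal protein messages, described below, had a similar median of -0.68, with 12.8% lower in every LKO library. The deletion is directed to hepatocytes, and its part in the lower target counts was not tested. Prdx1, a peroxiredoxin that removes hydrogen peroxide, had 8.13, 1.96, 9.85 and 2.39 CPM in LKO, against 10.8, 11.7, 18.9 and 13.0 CPM in flox (-1.30 ± 0.42, log2, SE; edgeR adjusted p = 0.207). Fth1, the ferritin heavy chain, had 16.3, 20.7, 23.8 and 20.8 CPM in LKO, against 27.2, 27.3, 37.2 and 35.9 CPM in flox (-0.64 ± 0.26; edgeR adjusted p = 0.306). The groups did not overlap for these 2 genes. Gstm1, a glutathione transferase, differed by -0.997 ± 0.411, with LKO 3 at 18.3 CPM inside the flox range, and Osgin1 was the exception at 1.03 ± 0.44 (log2, SE), where LKO 1 alone had 25.4 CPM. Keap1 had 71 to 87 exon counts in LKO and 59 to 81 in flox. Nqo1 and Hmox1, the best known targets, had 0 to 2 and 0 to 4 counts and could not be tested.

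The promoter of Prdx1, the Nrf2 target with the lowest p, is shown for its antioxidant response element. RefSeq places 250 bases before to 50 after its start at chr4:116685349-116685648 (GRCm38.p6, plus strand), and capitals mark the only match to TGACNNNGC, searched on both strands.
Prdx1: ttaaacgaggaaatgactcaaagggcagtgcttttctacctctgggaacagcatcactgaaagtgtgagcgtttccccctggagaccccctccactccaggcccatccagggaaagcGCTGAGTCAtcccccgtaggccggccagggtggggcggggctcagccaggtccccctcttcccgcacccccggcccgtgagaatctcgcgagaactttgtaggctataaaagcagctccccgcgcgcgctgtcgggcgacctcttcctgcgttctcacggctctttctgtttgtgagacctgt
Of the 16 tested targets 15 had such windows, and 7 of them held the motif in at least 1 (46.7%): G6pdx, Me1, Pgd, Prdx1, Srxn1, Txnrd1 and Ugdh. Over all 27025 genes with windows the share was 14.0%. The list was made of known targets of the factor, so this difference in share is no result of these libraries. The windows of Fth1, Gstm1 and Osgin1 held none, and a match of these letters is not a measured binding site.

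Ribosomal protein messages, a list of 78 tested genes, were nearly all below 0. They had 450, 529, 785 and 408 summed CPM in LKO, against 896, 917, 1284 and 892 in flox. That scale of all counts placed the list's median at -0.94 and that of all exon sets at -0.46. On the TMM scale the sum of LKO 3 was level with that of flox 1. Of these genes 75 were below 0, with a median of -0.68, and edgeR called 0. In every LKO library 10 (12.8%) were lower, against 6.00% of all exon sets. Rps18 had 14.2, 5.87, 6.79 and 6.82 CPM in LKO, against 17.6, 20.04, 34.5 and 23.2 CPM in flox (-1.53 ± 0.33, log2, SE; edgeR adjusted p = 0.0663, DESeq2 adjusted p = 0.0132). Rps21 differed by -1.34 ± 0.35 (log2, SE), also with no overlap. Ribosomal protein genes are active in nearly every cell type, and the part of the epididymis transcripts, which were lower in the same libraries, was not tested. Many processed pseudogenes resemble these genes, so reads may be split among copies.

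Exons and introns leaned apart. Among 5319 exon sets the median difference was -0.18, with 3273 below 0 and 2046 above. Among 3357 intron sets the median was 0.13, with 1348 below and 2009 above, and 54 (1.61%) were lower and 138 (4.11%) higher in every LKO library. Scaling by total counts placed exons at -0.46, introns at -0.17 and all features other than miRNAs at -0.28. The sign of the intron median thus depended on the scaling, while its place above that of exons did not. Introns of Pgs1, which makes phosphatidylglycerol phosphate for cardiolipin, were the highest-ranked by p of the more abundant introns above 0, with 74.1, 63.8, 28.5 and 44.0 CPM in LKO, against 27.6, 25.9, 24.8 and 13.0 CPM in flox (1.20 ± 0.30, log2, SE; edgeR adjusted p = 0.12). Every LKO library lay above every flox library, LKO 3 by the least.

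**Figure D5:**
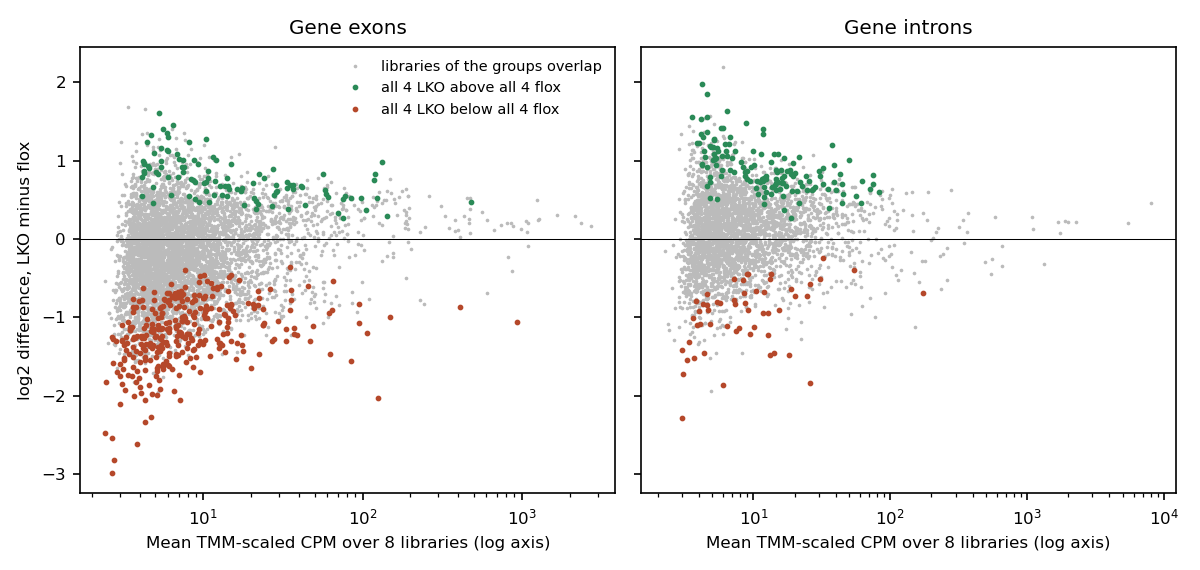
Log2 difference, LKO minus flox, against the mean TMM-scaled CPM of 8 libraries (log axis) for each tested exon set (left) and intron set (right). Red points, lower in all 4 LKO libraries, number 319 of 5319 exon sets and 54 of 3357 intron sets, and green points, higher in all 4, number 106 and 138.

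Other small nucleolar RNA genes differed less than Snord90. Of the 77 others tested 50 were below 0, with a median of -0.18, the same as over all exon sets, and 3 (3.90%) were lower in every LKO library, against 6.00% of all exon sets. Snora17 had 4.57, 6.26, 19.7 and 7.50 CPM in LKO, against 33.2, 20.3, 33.7 and 35.0 CPM in flox (-1.65 ± 0.35, log2, SE; edgeR adjusted p = 0.0663), and Snora5c differed by -1.30 ± 0.31 (edgeR adjusted p = 0.0903). Both belong to the H/ACA kind, which guides pseudouridylation, and LKO 3 was the highest LKO library for both. The other Y RNA measured, HY3, had 93.9, 154, 162 and 107 CPM in LKO, against 178, 146, 245 and 158 CPM in flox, a difference of -0.49 ± 0.24 (log2, SE; edgeR adjusted p = 0.409) with overlap.

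Fragments of tRNA, the most abundant RNAs of these libraries, were mostly higher in LKO, though edgeR called 0 of 57 tested tRNA names. Of these 43 were above 0, with a median of 0.38, 3 (5.26%) were higher and 2 (3.51%) lower in every LKO library, near the 4.05% of all structural RNA names in either direction. tRNA-Glu-GAG_ had 154650, 156110, 107360 and 119800 CPM in LKO, against 53848, 69604, 105680 and 63598 CPM in flox. LKO 3, the lowest of its group, was barely above flox 3, and the difference was 0.88 ± 0.24 (log2, SE; edgeR adjusted p = 0.145). tRNA-Gly-GGY had 297300, 199720, 166450 and 177120 CPM in LKO, against 145600, 101720, 202080 and 115000 CPM in flox (0.57 ± 0.25; edgeR adjusted p = 0.351), where flox 3 exceeded all LKO libraries but LKO 1. tRNA-Leu-CTG had 3093, 2370, 1548 and 2002 CPM in LKO, against 754, 1508, 1278 and 1139 CPM in flox (0.94 ± 0.24; edgeR adjusted p = 0.123). The sparse tRNA-Thr-ACY ran the other way, with 3.91 to 15.3 CPM in LKO and 16.1 to 26.8 CPM in flox (-1.38 ± 0.34; edgeR adjusted p = 0.12). DESeq2 gave adjusted p of 0.0359 for tRNA-Glu-GAG_ and tRNA-Leu-CTG and 0.0416 for tRNA-Thr-ACY. Scaling by total counts placed the tRNA median at 0.05, against -0.28 for all features other than miRNAs.

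Names of endogenous murine leukemia viruses were among the transposable elements with the lowest p after UCON31. RLTR4_Mm, the long terminal repeat of these viruses, had 13.7, 36.0, 40.1 and 19.8 CPM in sense in LKO, against 62.4, 59.0, 87.7 and 57.9 CPM in flox (-1.27 ± 0.29, log2, SE; edgeR adjusted p = 0.0849). The internal sequence MuLV-int had 232, 293, 444 and 120.0 CPM in LKO, against 458, 459, 582 and 532 CPM in flox (-0.90 ± 0.27; edgeR adjusted p = 0.187). Neither overlapped between groups. RLTR4_MM-int, the most abundant of the related names, differed by -0.84 ± 0.28 and RLTR6_Mm by -1.28 ± 0.38, with LKO 3 inside the flox range for both. All RLTR names in sense summed to 2112 to 3068 CPM in LKO and 3550 to 3683 in flox, without overlap. Without RLTR4_Mm, RLTR4_MM-int and RLTR6_Mm the sums overlapped, with 1587 to 2077 CPM in LKO and 1739 to 2119 in flox. Since these names were lower in LKO, leaving them out brings the sums closer by construction. Of the 74 other tested names 59 were above 0, with a median of 0.26, close to 0.22 for all sense repeats tested. Scaling by total counts placed these medians at -0.06 and -0.08. MLT2D in sense was higher at 1.52 ± 0.37 (log2, SE; edgeR adjusted p = 0.116), with LKO 4 inside the flox range. Copies of such repeats share reads.

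The piRNA clusters differed within a narrow range, and its sign depended on the scaling. Of 188 tested 179 were above 0, with a median of 0.24 and quartiles at 0.18 and 0.27, and 0 were called, 0 were under an unadjusted p of 0.05, and 1 (0.532%) did not overlap between groups. The 2 with the lowest p were 7-qD2-40.1 at -0.56 ± 0.30 and pi-Tmem194.3 at 0.75 ± 0.42 (log2, SE; edgeR adjusted p of 0.458 and 0.471). Scaling by total counts placed the median of the clusters at -0.08, against -0.28 for all features other than miRNAs. Since 95 of them share their total with another part of the same cluster, they are not independent. Among 36 tested miRNA hairpins 0 were called, and mir-196a-1 had 0, 14, 33 and 2 counts in LKO, against 27, 30, 71 and 74 counts in flox (-1.76 ± 0.55, log2, SE; edgeR adjusted p = 0.194), while mir-7234 differed by 0.70 ± 0.29.

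Base composition of the miRNAs moved with their differences. Over the 241 miRNAs with a sequence, GC content and log2 difference had Pearson's r of 0.301 and Spearman's rho of 0.35 across miRNAs, which share libraries and are not independent replicates. The 19 matched miRNAs lower at an unadjusted p under 0.05 had a median GC content of 39.1%, the 16 higher had 48.9%, and all 241 had 45.5%. Averaged over reads the GC content was 45.0% to 46.1% in LKO libraries and 45.0% to 45.6% in flox libraries, highest in LKO 2. The part of base composition in the differences was not tested.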

How the data were processed

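Small RNA reads of 8 sperm libraries, 4 Nrf2 LKO and 4 Nrf2 flox, were taken from the table that the authors deposited, which holds raw counts as whole numbers for each annotated feature. The aligner, the counting tool and the genome build are not given in the sources used here. The library names in the labels place all 8 on 1 lane. 0 columns of the table were left without a sample. Counts were summed per feature name within 8 classes (miRNA, hairpin, piRNA cluster, structural RNA, exon, intron, and transposable elements in sense and antisense).

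miRNAs and all other features were tested separately in R 4.3.3 with edgeR 4.0.16 (quasi-likelihood F test, two-sided, filterByExpr, TMM scaling within each family, Benjamini-Hochberg adjustment at 0.05). Permutation tests of class shares and compositions were exact and two-sided. Lists are described by counts and medians. Members and lists were chosen with earlier results of these data known, and the snoRNA and Y RNA lists after values were seen. Named were features that passed and averaged 10 CPM or more, otherwise those with the lowest unadjusted p (10 miRNAs, 2 per other class), the 10 most abundant miRNAs, 2 to 4 members of each list, Nfe2l2, Alb, and the exceptions stated in the text. Alternatives were DESeq2 1.42.0, total counts as library size, no filter, a replicate block, a threshold of 0.1, each library left out, another denominator for shares and, added after seeing the data, the highest single row of each name. The pipeline was tested on simulated data. Shares, lists and figures were made in Python 3.11.15 (pandas 2.3.3, scipy 1.17.1, numpy 2.4.6, matplotlib 3.10.9). Genes named by exon and intron carry no positions, since the build of the counts is unknown.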

Additional observations from a re-analysis of the deposited data

Results flagged for a closer look

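Of 146 groups of 4 libraries examined, for class shares, compositions and named features, 8 held 1 library whose gap to its nearest neighbour, as a part of the group's range, exceeded Dixon's 95% critical value. Chance flags about 1 in 20 such groups.

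In LKO libraries, LKO 3 was set apart for Snord90 (107 CPM) and for the piRNA cluster 7-qD2-40.1 (20.7 CPM), and LKO 1 for Rps18 (14.2 CPM), each as the highest of its group. In flox libraries, flox 3 was the highest for Clu (90.4 CPM) and for RLTR4_Mm in sense (87.7 CPM), and flox 2 was the highest for miR-532-3p (58.0 CPM) and the lowest for miR-200b-3p (2030 CPM) and Snora17 (20.3 CPM).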

How the results depend on the processing

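For features other than miRNAs, 5 were called, against 25 at a threshold of 0.1, 41 with DESeq2, 13 with total counts as library size (4 of the 5 among them, UCON31 not), 75 with no filter and 25 with a replicate block. The highest single row of each name gave 0 of 4602 tested, and omission of single libraries gave 0 to 209. With total counts as library size 0 of the 13 were higher and 13 lower, against 1 higher and 4 lower, and 25 higher and 184 lower without LKO 3. For miRNAs 0 were called, against 2 with no filter (miR-148a-3p and miR-141-3p), 1 with a replicate block (miR-148a-3p) and 0 with each other setting and with any library left out, where 18 to 56 were under an unadjusted p of 0.05.

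Same-numbered libraries did not deviate together (correlations of -0.25, 0.10, -0.30 and 0.42 for miRNAs and -0.07, -0.07, 0.18 and -0.01 for other features), and the numbers were not taken as pairs.

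No class share or composition passed in any setting. With structural RNA left out of the denominator 3 differences in share changed sign, antisense transposable elements (0.198 percentage points), miRNA (0.172) and piRNA clusters (1.77). With the highest single row those of antisense transposable elements (0.0633) and piRNA clusters (0.319) did. Omission of libraries gave piRNA cluster differences of -2.54 to 0.284 percentage points, above 0 without flox 2. Of named features, miR-191-5p turned to -0.0812 with total counts, where the median of all miRNAs was -0.30, and omissions gave log2 differences of -0.27 to 0.12 for miR-205-5p, -0.167 to 0.0859 for miR-148b-3p and -0.754 to 0.195 for Alb. The causes were not tested. Counts under 50 in most libraries, as for Prdx1, UCON31 or mir-196a-1, limit the precision of most exon and intron values.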

Other observations

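Some features called in the liver knockout comparison were also measured in sperm of wild type mice given a low dose of alcohol, against unexposed wild type controls (4 libraries each, fitted with the 12 wild type libraries). HY1 averaged 158 ± 58.4 CPM after the low dose and 464 ± 109 CPM in controls, a difference of -1.55 ± 0.44 (log2, SE; edgeR adjusted p = 0.253), and every low-dose library was below every control. Cd52 exons averaged 36.1 ± 16.1 CPM after the low dose and 85.7 ± 15.6 CPM in controls, a difference of -1.25 ± 0.49 (edgeR adjusted p = 0.495), also without overlap. Introns of Slc28a3 averaged 5.92 ± 3.22 CPM after the low dose and 2.47 ± 0.549 CPM in controls (1.20 ± 0.40, edgeR adjusted p = 0.362), where every low-dose library was above every control. Snord90 averaged 23.6 ± 7.59 CPM after the low dose and 62.4 ± 63.3 CPM in controls, with overlap. The difference from the liver knockout comparison was not tested for any of them.

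In Nrf2-/- mice, which lack the factor in every cell, ethanol against control gave differences of -0.05 ± 0.72 for HY1, -1.16 ± 0.88 for Cd52, -0.51 ± 0.72 for Snord90 and -0.24 ± 1.07 for Slc28a3 introns (log2, SE; edgeR adjusted p of 0.767 to 0.976 over these 4), all with overlap between its 4 and 4 libraries.

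Among the remaining miRNA lists, the miR-17-92 and paralogue clusters had the median farthest from that of all 295 miRNAs (0.03), -0.28 over 9 tested members. The miR-34 and miR-449 family had a median log2 difference of 0.16 over 4, the Sfmbt2 cluster 0.11 over 20, the miR-10 family with miR-125 0.09 over 7, miRNAs abundant in brain 0.07 over 5 and the Dlk1-Dio3 cluster 0.06 over 12. X-linked spermatogenesis miRNAs had a median of -0.03 over 25 and the miR-15, miR-16 and miR-195 family -0.07 over 6. Spermatocyte transcripts had a median of -0.05 over 4 and histone transcripts 0.04 over 15, against -0.18 over all exon sets, and the summed histone transcripts overlapped, with up to 166 CPM in LKO and as little as 165 CPM in flox. Spliceosomal RNAs had a median of -0.12 over 11, and the 1 tested ribosomal RNA name differed by 0.50, against a median of 0.25 over all structural RNA names. Of the transposable element lists, IAP in antisense had the highest median, 0.41 over 12, against 0.18 over all antisense repeats, and the medians of the L1Md, MERVL and MT, B1 and B2 lists in sense and antisense, of IAP in sense and of RLTR in antisense lay between 0.07 and 0.26. 0 members were called in each of these lists.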
